A study of Mus musculus with 7 samples.

Results

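The regions described here are stretches of the mouse genome where a JUNB peak lay more than 100 kb from the nearest end of any protein-coding gene. They were found by joining the peaks of 4 JUNB libraries wherever peaks shared at least 1 bp, taking the median of the lists' summits as the position of each region, and measuring the distance from that position to the closest gene end on chromosomes 1 to 19 and X. Of 12655 joined regions in all, 12622 lay on these chromosomes, and 1607 of them passed the distance rule. Of these 1607 distal regions, 583 lay inside a gene so long that its middle is more than 100 kb from either end, called a giant gene here, and 1024 lay between genes, in what is called a gene desert here. The rule chose by place; strength entered only where a list had several peaks in a region, of which the one with the best q gave the summit.

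The cells were mouse embryonic fibroblasts of the line iMGT-Myh6-eGFP-MEF, in which doxycycline switches on Mef2c, Gata4 and Tbx5 (MGT), transcription factors of the heart, and which carry, as the name says, an eGFP reporter for Myh6, a cardiac myosin gene. Both groups received doxycycline and were collected at day 1 of MGT expression; they differ by the siRNA given the day before induction, siControl or siChst7 by the sample titles (Chst7 encodes an enzyme that adds sulfate to chondroitin chains). In the labels, the protocol for transfection lists siJunb, siH1f0 and siControl without siChst7, so titles and treatment labels were taken as the source of the groups. There were 2 JUNB libraries for each siRNA, called biological replicates without word of separate cultures, so that p-values here reflect only how these samples vary, possibly for technical reasons; 3 IgG libraries were not analysed here. The labels do not say whether the line is 1 clone, and no marker of cell identity can be read from peak lists.

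JUNB is a subunit of AP-1, a family of basic leucine-zipper dimers of JUN and FOS proteins that bind the palindrome TGANTCA and respond quickly to serum, stress and growth signals. In fibroblasts AP-1 sits mostly at enhancers, regulatory stretches that can lie far from the promoter they act on, and it takes part in keeping the fibroblast programme that cardiac reprogramming has to replace. A region in a gene desert therefore has no self-evident target, and the gene named beside it below is only the one with the nearest end. CUT&RUN, the assay used, cuts DNA loose beside the antibody-marked protein, so that the fragments sequenced show its place.

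Because no genome sequence was used here, letters could be read only where a distal region met a promoter window of RefSeq (250 bases before to 50 bases after a transcript start). Distance was measured from protein-coding genes, so a distal region can still sit at the start of a non-coding RNA or at a start inside a giant gene. Among the 1607 distal regions, 10 had their position in such a window: 7 at long non-coding RNAs (lncRNAs) and 3 at internal starts of the giant genes Ltbp1, Creb5 and Sh3kbp1. Only 3 of these 10 were called in all 4 libraries, and each of the 3 windows held TGANTCA (capitals), the AP-1 palindrome, once. They are shown because they are the only distal regions called in every library whose letters could be read; each window is given 5′ to 3′ on its gene's strand (minus for all 3), with GRCm38.p6 coordinates from RefSeq. Morrbid is an lncRNA known for controlling survival of short-lived myeloid cells, and the other two are named only by their annotation.
4930471E19Rik, chr10:120636058-120636357, minus strand: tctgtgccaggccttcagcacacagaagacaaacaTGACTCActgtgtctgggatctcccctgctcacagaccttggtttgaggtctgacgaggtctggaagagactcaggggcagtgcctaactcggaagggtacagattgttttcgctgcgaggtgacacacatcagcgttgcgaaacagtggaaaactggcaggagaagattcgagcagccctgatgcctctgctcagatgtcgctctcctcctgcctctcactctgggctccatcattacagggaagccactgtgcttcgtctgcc
Morrbid, chr2:128429302-128429601, minus strand: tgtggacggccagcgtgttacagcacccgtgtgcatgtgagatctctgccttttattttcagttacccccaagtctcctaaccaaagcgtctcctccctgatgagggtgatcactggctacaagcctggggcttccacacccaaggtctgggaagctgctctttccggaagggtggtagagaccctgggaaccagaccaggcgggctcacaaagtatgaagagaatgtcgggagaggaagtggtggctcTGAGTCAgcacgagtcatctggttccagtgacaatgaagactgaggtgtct
Gm30657, chr5:118413532-118413831, minus strand: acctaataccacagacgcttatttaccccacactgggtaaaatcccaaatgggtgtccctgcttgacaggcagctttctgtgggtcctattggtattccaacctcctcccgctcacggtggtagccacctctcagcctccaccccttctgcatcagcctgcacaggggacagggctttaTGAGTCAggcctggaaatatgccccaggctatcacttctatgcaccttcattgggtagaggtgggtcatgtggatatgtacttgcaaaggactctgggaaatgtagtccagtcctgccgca

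In the Morrbid window the motif filled bases 250 to 256, 17 bases from the JUNB position at base 236. The authors' fold enrichments there were 12.9 and 7.73 in siControl replicates 1 and 2 and 8.16 and 6.27 in siChst7 replicates 1 and 2; both groups overlap. In the 4930471E19Rik window the motif lay 58 bases from the position, with folds of 8.10, 7.21, 9.81 and 8.06 in the same order of libraries. In the Gm30657 window it lay 67 bases away, and the folds were 4.44, 5.52, 4.43 and 7.94. By fold they ranked 6014 of 6305, 4222 of 5630, 9395.5 of 10035 and 1514 of 4590 regions in the 4 lists. They were thus near the low end in siControl replicate 1 and siChst7 replicate 1, and not in siChst7 replicate 2. The call of these 3 regions in every library depended on the settings. With 50% reciprocal overlap, each of them was a region of 3 lists, and joining only summits with 100 bp on each side left Morrbid in 2. Gm30657 was in 3 lists at a q of at most 0.001 and in 2 with lists of equal length. TGANTCA stood in 6 of the 10 windows with a distal position (60%), in 96 of the 466 windows that held the position of another JUNB region (20.6%) and in 2559 of all 32619 promoter windows (7.85%). A match anywhere in the window counted. In the windows of the lncRNA Gm30986, of Creb5 and of Sh3kbp1 it lay 165, 166 and 255 bases from the position, each in a region called in 1 library. Of the 59 windows with another region called in all 4 libraries, 21 held it (35.6%), beside the 3 of 3 shown. The windows are few, a match of letters is not a bound site, and the related motif TGACGTCA, searched on both strands, was in none of the 10 windows, in 5.15% of those with another region and in 1.80% of all.

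Because the distance rule leaves out the windows at the ends of protein-coding genes, the low number of windows met follows from the choice of regions. Non-coding genes were not used by the rule. Of the 1607 regions, 1318 (82.0%) lay within 100 kb of the end of a non-coding gene, 380 within 10 kb and 60 within 1 kb. The remaining 289 were more than 100 kb from every annotated gene end of any kind. With 27923 non-coding genes annotated, many places lie within 100 kb of such an end. The same distances were not counted for other regions, so these counts show no closeness particular to distal regions. In gene deserts, 239 of 1024 distal regions (23.3%) lay inside a non-coding gene, compared with 36 of 583 (6.17%) in giant genes; over all 12622 regions the share was 12.6%.

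The distal regions took nearly the same share of every list. They made up 12.5% and 12.9% of the regions in siControl replicates 1 and 2 and 12.6% and 13.2% in siChst7 replicates 1 and 2, so that the groups overlap (siControl 12.7% ± 0.284 and siChst7 12.9% ± 0.488, SD, n = 2 each). The difference of 0.171 percentage points had p = 0.667 by an exact, two-sided permutation over the libraries, a design that cannot give a p below 0.333, and its direction reversed without siControl replicate 1 (-0.0326) or without siChst7 replicate 2 (-0.182). Giant-gene regions were 4.52%, 4.55%, 4.45% and 4.84% of the 4 lists in the same order, with the siChst7 libraries lowest and highest (difference 0.112 points, exact permutation p = 1). Desert regions were 8.01%, 8.38%, 8.10% and 8.41%, and again the groups overlap (difference 0.0590 points, exact permutation p = 0.667). The lists themselves were of unequal length, from 4590 to 10035 regions, and the longest and the shortest both came from siChst7 cells, with 1260 and 608 distal regions.

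**Figure D1:**
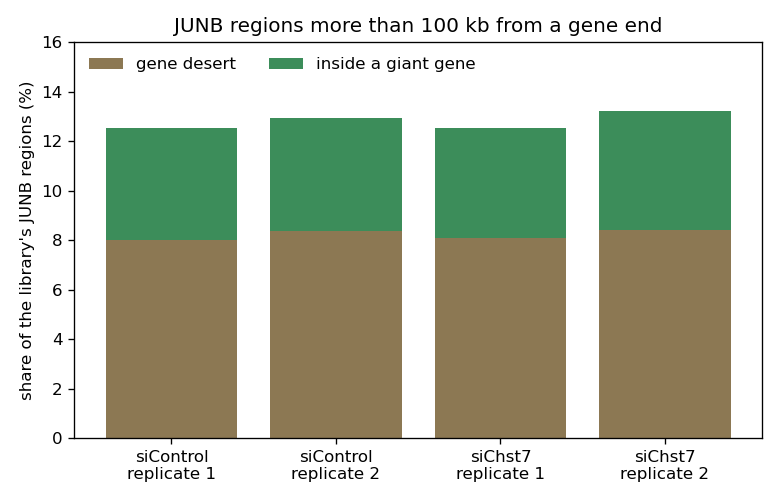
Share of each library's JUNB regions (vertical axis, percent) at over 100 kb from the ends of protein-coding genes, split into gene desert and giant gene; 1 bar for each of the 2 siControl and 2 siChst7 libraries. The whole bars stand between 12.5% and 13.2%, with no gap between the groups.

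Measured against the length of their ground, distal regions were thin. Assembly gaps and stretches where reads cannot be placed were not taken out of any ground. Their effect on the densities was not tested. The stretches beyond 100 kb of a gene end covered 949 Mb, or 36.5% of the 2600.2 Mb between the first and last gene ends of the chromosomes, and held 12.6% of the regions there. Giant-gene interiors had 2.76 regions per Mb, deserts 1.36, and the remaining ground 6.67. In single libraries the giant-gene density was 1.35 and 1.21 per Mb in siControl and 2.11 and 1.05 in siChst7, against desert densities of 0.663, 0.611, 1.08 and 0.499. The giant-gene interiors were thus the denser of the distal ground in 4 of 4 libraries, by 1.95-fold to 2.10-fold. The mean log2 ratio was 1.01 ± 0.05 (SD over 4 libraries, two-sided exact sign-flip permutation p = 0.125, the smallest that 4 libraries allow). Ground within 100 kb exceeded desert by a mean log2 ratio of 2.30 ± 0.03 (4 of 4 libraries, same exact permutation p of 0.125).

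**Figure D2:**
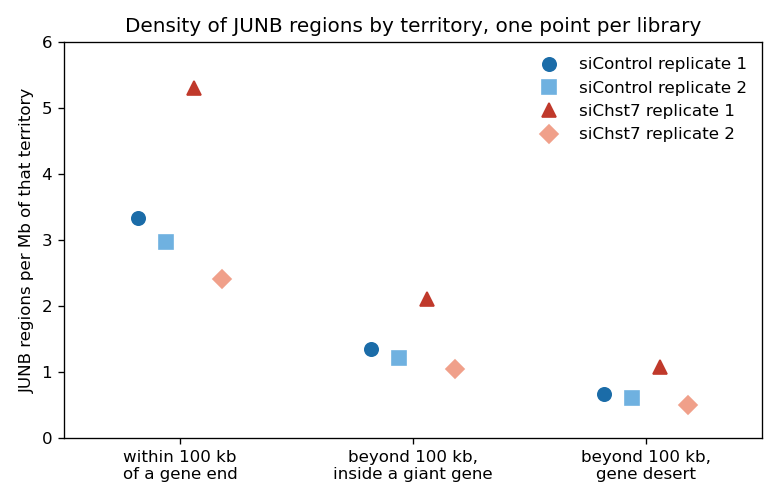
JUNB regions per Mb (vertical axis) in ground within 100 kb of a gene end, in giant-gene interiors and in gene deserts; each point is 1 of the 4 libraries. The order of the 3 kinds of ground is the same in every library, while the height follows the length of the list, with siChst7 replicate 1 on top.

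Chromosome 13 stood apart in this respect. Distal regions were 149 of its 550 regions (27.1%), where the next highest chromosome, X, had 19.2% and the lowest, chromosome 19, had 5.22%. Library by library the share on chromosome 13 was 27.5% and 29.8% in siControl and 26.6% and 26.3% in siChst7, against 11.6% to 12.2% on the other chromosomes together. The mean difference was 15.7 ± 1.75 percentage points (SD, 4 of 4 libraries positive, exact sign-flip permutation p = 0.125), on a chromosome singled out after its values were seen. Its giant-gene interiors held 6.07 regions per Mb and the ground near genes 5.37, the one chromosome where the interiors were the denser. Genes on it recur below: Klf6, Gadd45g, Sugct, Atxn1, Nr2f1 and Foxd1.

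As a class, distal regions were called about as repeatably as others. Of the 1607, 754 were called in 1 library (46.9%, background 46.8%), 285 in 2, 210 in 3 and 358 in all 4; the last are 22.3%, against a background of 21.9% of all 12622 regions. Within each library the share of regions that all 4 libraries had was 45.3%, 49.2%, 28.4% and 58.9% for distal regions and 43.7%, 49.2%, 27.5% and 60.5% for the others, in the usual order of siControl replicates 1 and 2 and siChst7 replicates 1 and 2. The difference was positive in 2 of 4 libraries (mean 0.216 points, exact sign-flip permutation p = 1), and its sign reversed without siControl replicate 2 (-1.00). Giant-gene and desert regions differed little in this, with 128 of 583 (22.0%) and 230 of 1024 (22.5%) in all 4 libraries. Of the 754 single-library regions, 458 came from siChst7 replicate 1, the longest list (60.7%; 62.5% over all single-library regions).

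Median fold enrichment, the authors' ratio of a peak over local background, was 6.53, 6.38, 6.61 and 6.59 for distal peaks and 6.90, 6.64, 6.61 and 6.81 for the others in the same libraries. The distal median was the lower in 3 of 4 and equal in siChst7 replicate 1 (mean log2 difference -0.05 ± 0.03, SD over 4 libraries, exact sign-flip permutation p = 0.25). Median peak widths were 387 to 458 bp for distal peaks and 375 to 446 bp for others, with no shared direction over the libraries (mean log2 difference 0.02, exact permutation p = 0.5). The summits of a region's 4 lists lay within a median of 165 bp of each other for distal regions and 191 bp for the others.

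The distal regions with the best mean rank by fold within the lists are described first, giant genes and then deserts, with folds given for siControl replicates 1 and 2 and siChst7 replicates 1 and 2. Arhgap24, a GTPase-activating protein for Rac, held the best-ranked giant-gene region at chromosome 5, 102576456 to 102577904 (mm10), 328 kb from the nearer end of a 698 kb gene, with folds of 35.9, 27.6, 43.3 and 24.2. Ltbp1, a matrix protein that stores latent TGF-beta, followed at chromosome 17, 75110188 to 75111727, with 38.6, 27.1, 32.7 and 25.8. In both genes the lowest of the 4 folds was in siChst7 replicate 2, and the groups overlap. A region inside Zfp469, a zinc-finger gene linked to brittle cornea, stood just past the distance limit at 102 kb, with 21.1, 22.9, 35.1 and 25.0 (chromosome 8, 122144208 to 122145766); here both siChst7 folds were above both siControl folds, an order found in 22% of all regions in all 4 lists (the opposite order in 12.5%). Ank2, the membrane scaffold ankyrin-B, which places ion channels in heart muscle cells, had 25.9, 17.0, 37.8 and 23.0 at chromosome 3, 127063553 to 127064580. Sugct, a mitochondrial CoA transferase, had 22.5, 21.5, 24.2 and 18.4. The remaining giant-gene regions of the best 10 lay in Iqschfp and Schip1, which overlap, in Stard13, in Snx29, in the postsynaptic scaffold gene Dlgap2 and in Msi2, an RNA-binding protein of stem cells; their 20 folds ran from 12.5 to 31.8. Whether these positions are exonic or intronic was not analysed here.

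In the deserts the best-ranked region lay 200 kb from C1d, a cofactor of the nuclear exosome, in the 670 kb gap to Etaa1 (chromosome 11, 17468278 to 17469288), with folds of 31.6, 32.9, 45.8 and 27.1. A region 138 kb from Foxa2, a pioneer factor of endoderm, had 23.2, 25.5, 41.6 and 23.7 (chromosome 2, 148184405 to 148186027), and lay 2687 bases from the non-coding gene Gm36597. The third by rank lay 175 kb from Nfkbiz, an inducible partner of NF-kappa-B, and had 20.6, 15.5, 32.3 and 19.2. In each of these 3 regions siChst7 replicate 1 had the highest fold and the groups overlap. Myocd, the coactivator of serum response factor in cardiac and smooth muscle, had a region 179 kb from its end, in the gap to Map2k4, at chromosome 11, 65447896 to 65449463. Its folds were 16.6 and 16.6 in siControl and 27.1 and 20.4 in siChst7, so that both siChst7 values were above both siControl values.

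The same order of groups was seen 120 kb from Gadd45g, a stress-induced growth regulator, with 16.8, 15.5, 30.0 and 17.0 (chromosome 13, 51968245 to 51969641). It was turned around 293 kb from Ptger4, a receptor of prostaglandin E2, with 19.9 and 21.5 in siControl and 17.0 and 16.5 in siChst7. Mctp2, Frmd6, a membrane protein upstream of the Hippo pathway, Myc, the growth-promoting transcription factor, and Trib1, a pseudokinase that guides protein degradation, completed the best 10 with folds from 12.6 to 25.8. The Myc region lay 297 kb from the gene in a desert of 1786 kb that reaches to Gsdmc, and 27.1 kb from the lncRNA gene Pvt1.

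**Figure D3:**
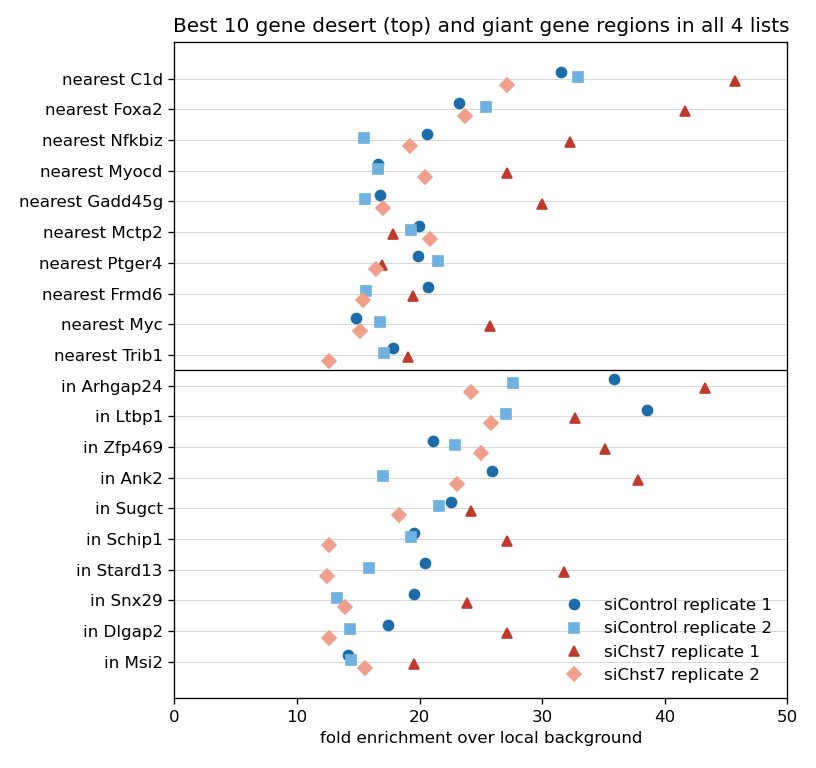
Fold enrichment in the authors' lists (horizontal axis, ratio over local background) of the 10 best-ranked desert regions (upper block, named by nearest gene) and the 10 best-ranked giant-gene regions (lower block, named by containing gene); 1 point for each of the 4 libraries. Most rows have siChst7 replicate 1 farthest right, while Ptger4 has both siControl points on the right.

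Folds of single peaks were set by each library's own caller run, so the orders of groups given for single regions are descriptions and show no change in binding; how often each order occurs is given here over all regions. Among the 358 distal regions in all 4 lists, siChst7 replicate 1 had the highest fold in 190 (53.1%), against 55.3% of all such regions. The other libraries had it less often: siControl replicate 1 in 84 (23.5%; all regions 23%), siControl replicate 2 in 50 (14.0%; all regions 12.6%) and siChst7 replicate 2 in 34 (9.50%; all regions 9.1%). Both siChst7 folds were above both siControl folds in 79 (22.1%; all regions 22%) and below them in 47 (13.1%; all regions 12.5%). Beside the single-library regions, few were called in 1 group only. In siControl 23 were called in both libraries and in no siChst7 library (1.43%, background 1.57%), and 78 the other way around (4.85%, background 3.88%), and no test was run on these counts, since 2 libraries a group cannot give a permutation p below 0.333. The best-ranked siControl-only regions lay in Ntng1, an axon guidance gene (folds 6.44 and 8.08), in Pappa2, a protease that frees insulin-like growth factor (7.45 and 6.58), in Samd4 (8.38 and 5.59), and in deserts nearest Gramd3 (6.90 and 7.18) and Dipk2b (6.53 and 6.83). The best-ranked siChst7-only regions were in the desert nearest Epb41l4a (11.5 and 8.20), 129 kb from the cell-cycle inhibitor Cdkn2b (9.81 and 8.20), 110 kb from the transcription factor Cebpb (8.59 and 8.67), inside Stard13 (10.1 and 6.73) and 124 kb from Gata3 (9.15 and 6.88). These folds were low beside those of the best common regions, and a peak missing from a list can still have signal below its threshold. Of these 10, the regions at Pappa2, Samd4, Cdkn2b and Stard13 were each in 1 list with 50% reciprocal overlap, and those at Epb41l4a and Stard13 with joined summits. Leaving out either siControl library raised the siChst7-only count to 128 or 120, and leaving out siChst7 replicate 1 or 2 changed it to 140 or 539.

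Several genes had repeated distal regions in all 4 libraries. Ltbp1 had the most in a giant gene, 5 in 2 groups along its length: 2 at 100 and 105 kb from one end, and 3 in a stretch of 7.86 kb with folds from 5.87 to 18.8; the gene had 10 distal regions in any list. Frmd6, Gadd45g, Klf14, Klf6, Mctp2, Tex13c3, Thbs1 and Trib1 had 4 each as the nearest gene of a desert, and Thbs1 encodes thrombospondin-1, a matrix protein that activates TGF-beta. Giant-gene and desert regions were counted separately for each gene, so genes with fewer in each class are not counted. Leaving out the neighbours of the low-fold regions described below, a further 17 genes had 3 of the same class. Among them were the giant genes Dst, a cytoskeletal linker, Fmn1, an actin nucleator, Zbtb20, Atxn1 and Rad51b. The desert neighbours Tgfb2, Cited2, Dact1 and Rbms1 were also among them, as was Sugct, with 3 desert regions and 2 more inside the gene. All 3 Tgfb2 regions, 106 to 174 kb from this TGF-beta ligand, were called in every library, and no further distal region had Tgfb2 as its nearest gene. Their folds were 11.3, 13.9, 16.3 and 15.1 for the nearest of them, 8.44, 12.7, 23.0 and 13.6 for the next and 7.09, 9.32, 12.7 and 9.56 for the farthest. The nearest had both siChst7 folds above both siControl folds, as did the other 2.

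Of the 358 distal regions in all 4 lists, 90 stood within 20 kb of another, in 34 chains, and 268 stood alone; 9 chains had 3 or more regions. Of these, 2 chains with 17 regions were the low-fold sites near Alkbh8 and Gm2244 described below. Without low-fold regions, 73 of 338 (21.6%) stood within 20 kb of another, compared with 690 of the 2411 other regions in all 4 lists (28.6%), on ground where regions are denser; no test was run. The Frmd6 chain put 4 regions within 17.2 kb, the Klf14 chain 4 within 38.6 kb, the Gadd45g chain 3 within 6.92 kb and a chain near Tex13c3 on chromosome X 3 within 10.7 kb, all 3 inside the non-coding gene Gm14636. The Ubash3b regions lay in Mir100hg, the host gene of a microRNA cluster described below. Regions in a chain share their neighbourhood and are not independent of one another.

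Among the farthest from any gene end in all 4 lists were regions 775 kb from Otol1 (folds 12.9, 6.21, 10.4 and 10.7), 710 kb from Cited2, a CBP/p300 partner of heart development (8.86, 8.47, 9.39 and 7.13), 613 kb from Klf6, an immediate-early zinc-finger factor (6.66, 4.97, 5.31 and 7.04), and 611 kb from the nuclear receptor gene Nr2f1 (7.73, 7.46, 9.15 and 8.95). Of the 1607, 581 lay over 200 kb and 78 over 500 kb from a gene end. Just inside the limit in all 4 lists were regions in Rap1gap2 (100.2 kb; folds 11.4, 8.96, 15.8 and 11.5) and Ltbp1 (100.4 kb; 14.3, 12.6, 20.8 and 14.3), and just outside it regions in Camk1d (99.9 kb; 24.6, 17.1, 22.4 and 10.7) and Med13l (99.6 kb; 7.69, 5.87, 6.71 and 4.76).

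The distal ground of gene lists is described next by its density of regions, with no test, since the lists were chosen with earlier results of these data known. To each gene was given the distal ground inside it or nearest to it, and of 21631 protein-coding genes 3084 had such ground and 740 (3.42%) had a distal region on it, 244 (1.13%) one in all 4 lists, 1.69 regions per Mb over all genes. Of the genes with distal ground, 24.0% had a region on it. Immediate-early genes are those that cells switch on within minutes to hours of a stimulus. Their list here is mixed, with AP-1 and growth signal genes and the cell-cycle inhibitor Cdkn2b. It had 58 regions on 4.05 Mb (14.3 per Mb), at 11 of the 16 genes with distal ground. Klf6 had 13 of them, Myc 11, and Cdkn2b, the phosphatase gene Dusp4, Klf4 and Klf5 had 6 each. The list's density was 8.64 and 6.42 per Mb in siControl replicates 1 and 2 and 11.8 and 5.92 in siChst7 replicates 1 and 2, against 0.831, 0.766, 1.33 and 0.640 over all genes. The list was above all genes in each library, and the siChst7 libraries were again highest and lowest.

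Long genes of matrix, adhesion and cytoskeleton had 79 distal regions on 14.1 Mb (5.61 per Mb), at 25 of 33 genes with distal ground. Dst and the LIM protein gene Lpp, a component of focal adhesions, had 11 each. Long neuronal and adhesion genes offered 55.8 Mb, the most of any list, and had 12 regions (0.215 per Mb), at 9 of 31 genes; the ion channel modulator Fgf14, the growth factor Nrg1, the cell adhesion gene Opcml, Sgcd, of the muscle sarcoglycan complex, and Tenm4 had at least 1 in all 4 libraries. Per library the matrix list had 2.77, 2.49, 4.41 and 2.42 regions per Mb and the neuronal list 0.161, 0.126, 0.161 and 0.126. All 4 values of the neuronal list were below those of all genes, and all 4 of the matrix list above them. Without the low-fold regions described below, the neuronal list had 11. The region left out was that of Fgf14, in the desert beside the gene, with folds of 2.82, 2.98, 2.16 and 2.57. The regions in all 4 lists at Sgcd and Tenm4 also lay in deserts beside these genes. The median fold of the regions in all 4 lists was 8.09 for the immediate-early list, 8.89 for the matrix list and 7.39 for the neuronal list, against 8.45 over all distal regions.

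Developmental transcription factors had 58 regions at 20 of 41 genes with distal ground (2.88 per Mb), with 7 at Runx1, a Runt-domain factor, and 6 each at Sox5 and Zeb2. A Runx1 region 127 kb from the gene had folds of 13.3, 12.9, 13.2 and 10.0, and one 122 kb from Foxd1, a marker of stromal progenitors, had 9.02, 10.6, 6.94 and 8.06. Cardiac transcription factors had 9 regions at 4 of 8 genes (3.50 per Mb): 4 at Gata6, 3 at Isl1, 1 at Tbx18 and 1 at Myocd, which alone was in all 4 lists. TGF-beta, Wnt, Fgf and Bmp genes had 10 regions at 6 of 15 genes (3.01 per Mb), 3 of them at Tgfb2. Proteoglycans and the enzymes of their sugar chains, the pathway of Chst7, had 11 at 9 of 20 genes (1.30 per Mb). Its density was below that of all genes, and level with it in siControl replicate 1 (0.830 against 0.831 per Mb), while its share of genes with a region (45%) was above the 24.0% of all genes. The one in all 4 lists was in Ust, a uronyl sulfotransferase, with 11.6, 9.93, 8.57 and 8.06, both siControl folds above both siChst7 folds. None of these 11 was among the 23 siControl-only or 78 siChst7-only regions. Those classes took 1.43% and 4.85% of all distal regions, so their absence among 11 says nothing on this pathway.

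Marker genes of other cell types had little distal ground. Macrophage markers had 0 regions on 0.451 Mb, epithelial markers 0 on 0.051 Mb, endothelial markers 2 (Cdh5 and Emcn, neither in all 4 lists) and neuronal markers 1, 425 kb from Stmn2, in all 4 lists. With so little ground, counts of 0 say nothing on these cell types.

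**Figure D4:**
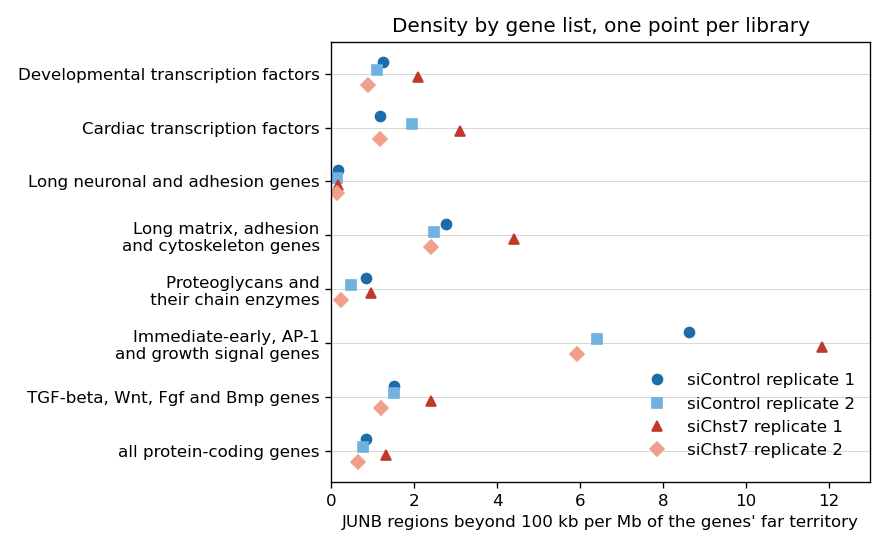
JUNB regions beyond 100 kb per Mb of distal ground (horizontal axis) for the gene lists with more than 2 Mb of it and for all protein-coding genes; 1 point for each of the 4 libraries. Immediate-early, AP-1 and growth signal genes lie farthest right, from 5.92 to 11.8, and long neuronal and adhesion genes farthest left, from 0.126 to 0.161.

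MicroRNA genes lay near some of the distal regions. The same counts were not made for other regions, so nothing here shows that distal regions lie nearer to microRNA genes than others do. MicroRNAs are short RNAs that bind target messages chiefly through their seed, bases 2 to 8. Of 1005 hairpins of RefSeq on these chromosomes, 14 were within 10 kb of a distal region and 7 within 10 kb of one in all 4 lists. These 7 were Mir29a, Mir29b-1, Mir125b-1, Mirlet7a-2, Mir3092, Mir6896 and Mir6390. Mature sequences are shown, with the seed in capitals, for those whose hairpin lay closest to such a region, and for miR-100, whose hairpin is in the same host gene as Mir125b-1 but lay 14.8 kb from the nearest region in all 4 lists. The miR-29 family is known for restraining collagen genes in fibroblasts, and miR-125b is a conserved regulator of growth and differentiation.
mmu-miR-29a-3p: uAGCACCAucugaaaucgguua
mmu-miR-29b-3p: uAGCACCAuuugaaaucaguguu
mmu-miR-125b-5p: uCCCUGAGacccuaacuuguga
mmu-miR-100-5p: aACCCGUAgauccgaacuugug
mmu-miR-3092-3p: gAAUGGGGcuguuuccccucc

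The first 2 share the seed AGCACCA. Their hairpins Mir29a and Mir29b-1 lay 0.640 kb and 1.00 kb from the position of a region at chromosome 6, 31061381 to 31062438, one of the Klf14 chain, with folds of 10.8 and 7.99 in siControl and 7.35 and 6.22 in siChst7; both siControl folds were above both siChst7 folds. Mir125b-1 and Mirlet7a-2 lie in the lncRNA gene Mir100hg (chromosome 9, 41376526 to 41615185), as does Mir100. Over its 239 kb, Mir100hg held 12 distal regions, of which 5 were in all 4 lists; the libraries had 8, 8, 11 and 7 of them. The strongest of the 5, at 41479753 to 41481777, had folds of 19.2, 15.3, 25.3 and 11.2. The region closest to Mir125b-1, at 4.07 kb, had 8.71, 5.95, 10.2 and 7.13, and the region closest to Mirlet7a-2, at 9.47 kb, had 6.90, 5.34, 12.1 and 5.68. In the giant gene Fndc3b, the position of a region fell within the hairpin Mir3092, with folds of 7.09, 6.21, 13.3 and 9.46. Mir6896 lay 5.07 kb and 6.47 kb from 2 regions in Dst, with folds of 5.15, 8.64, 10.7 and 6.56 for the nearer, and Mir6390 lay 7.84 kb from a region in the desert of Spry2, with 8.07, 5.72, 6.94 and 6.05.

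A small set of distal regions had a low fold, at a wide range of significance. For 31 of the 1607 (1.93%) the fold was under 3 in every list that called them, against 39 of all 12622 regions (0.309%); 30 of the 31 were in deserts and 20 were in all 4 lists. Peaks with a fold under 3 were 2.91%, 3.85%, 1.83% and 4.11% of distal peaks and 0.109%, 0.102%, 0.0456% and 0.0753% of the others. The difference was positive in 4 of 4 libraries (mean 3.09 ± 1.02 points, SD, exact sign-flip permutation p = 0.125). At the start of the assembled chromosome 9, from 3000317 to 3038161, 20 such regions filled 37.8 kb, 298 to 334 kb from Alkbh8; 14 of them were in all 4 lists, the folds ran from 1.10 to 2.55 and the −log10 q ran from 2.12 to 560. In 7 of the 31 the −log10 q was at most 10 in every list that called them. Others lay at chromosome 14, 19415826 to 19419276 (3 regions, folds 1.17 to 1.52), and on chromosome 17 near Tcte2 (3) and near Esp38 (2), the last pair inside Rn18s-rs5, annotated as related to the 18S ribosomal RNA gene; 1 each lay nearest Fgf14 and Pex2 and in Dock2. The farthest region in all 4 lists, 1035 kb from Lrrc4c at chromosome 2, 98666635 to 98667220, had folds of 3.05, 3.02, 2.46 and 2.78 with a −log10 q of 6683 to 9701, the highest of each list. Of the 20 peaks with the highest −log10 q in each library, 8, 8, 6 and 7 were distal, and 5, 6, 4 and 6 of these had a fold under 3. Whether the low-fold regions hold JUNB was not tested here, as no IgG values stand beside them.

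**Figure D5:**
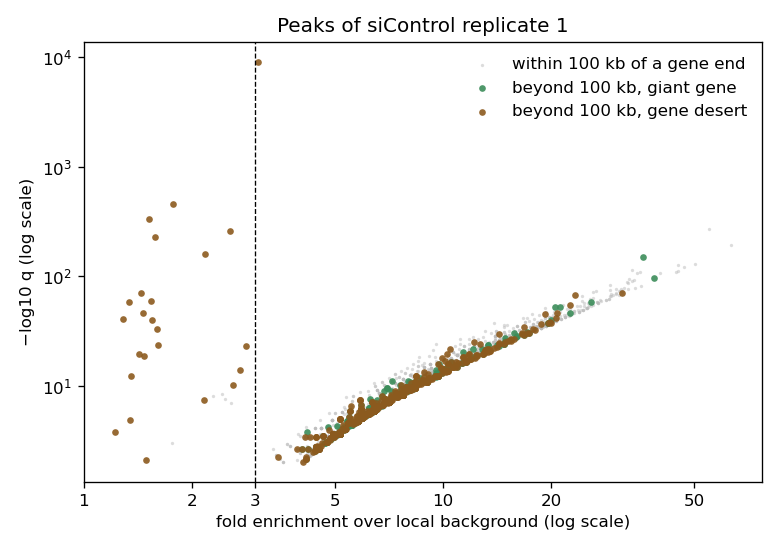
Fold enrichment (horizontal, log scale) against −log10 q (vertical, log scale) of the peaks of siControl replicate 1, by place; the dashed line marks a fold of 3. Most distal peaks follow the band of the other peaks. Exceptions include the 23 left of the line and the topmost point, just right of it, the chromosome 2 region with a fold of 3.05.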

How the data were processed

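Peak lists of 4 JUNB CUT&RUN libraries were used, 2 for each siRNA. Bowtie2, MACS3 and mm10 are named by the submitters' processing notes, without versions or settings; use of an IgG library as control is not given in the sources used. The deposited lists name their peaks by library, and give for each peak a fold enrichment (a ratio made by the authors' caller), the −log10 of a p-value and of a q-value, and a summit; the deposited score per peak was not used. The lowest −log10 q over the deposited lists was 2.00. A peak missing from a list can therefore hold weaker signal. Read depth is unknown here beyond the 30 M reads stated in the labels. The deposited fold and q values served to rank, filter or describe peaks inside their own list; folds of 1 region in several lists are set side by side as a description, since the lists were called separately and differ in length.

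Peaks were joined at 1 bp of overlap; 33 regions elsewhere than chromosomes 1 to 19 and X were left out. Genes came from RefSeq for GRCm38.p6, the assembly of mm10 (21631 protein-coding and 27923 non-coding genes); the table gives no exons. Promoter windows and microRNAs are RefSeq's for the same assembly. All 268 entries of 11 gene lists matched; the planned motif search over regions needed a genome and was not run. The members and lists were chosen with earlier results of these data known, and the densities, chromosome 13, chains, promoter and microRNA results were added after the files were seen. Named regions followed a rule: the 10 best-ranked regions in all 4 lists of each class, the 5 best of each group-only class, the lowest-fold and farthest 5, genes with 3 or more of the same class, up to 4 per list, and 2 on each side of the limit.

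Libraries were compared by two-sided exact permutation (smallest p 0.333), and distal with other regions within each library by sign-flip permutation (smallest p 0.125); neither can reach 0.05. The steps were tested on simulated lists. Alternatives changed the overlap, q, fold, list length, distance, gene set, chromosomes and libraries used, and added a replicate block. Matplotlib 3.10.9, pandas 2.3.3, SciPy 1.17.1 and NumPy 2.4.6 ran under Python 3.11.15.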

Additional observations from a re-analysis of the deposited data

How the results depend on the processing

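The lower fold of distal peaks and their greater share of low-fold peaks kept their direction under every alternative that gave a value (leaving out a library: -0.06 to -0.03 on the log2 scale, and 2.76 to 3.50 points); the latter has no value at a fold of at least 3. Their size did not hold: the fold difference was -0.0133 at a fold of at least 3 (exact permutation p = 0.625) and -0.00326 beyond 50 kb (p = 1), and the low-fold share differed by 1.01 points with equal lengths by fold, which removes low folds (p = 1), 1.48 beyond 50 kb, 1.03 from any gene and 6.22 beyond 200 kb. The siChst7 minus siControl differences in share reversed at a q of at most 0.001 (all distal -0.0308 points, desert -0.105), with equal list lengths by −log10 q (all -0.0650, giant -0.0408, desert -0.0242) and with any RefSeq gene (giant -0.00198). Without 1 library they ran from -0.182 to 0.496 (all), -0.0727 to 0.291 (giant) and -0.111 to 0.253 (desert). Distal regions numbered 1047 and 1068 with equal list lengths by −log10 q and by fold, 3239 beyond 50 kb, 581 beyond 200 kb, 289 from any RefSeq gene, and 1172 to 1560 without 1 library; in all lists, 764 beyond 50 kb, 128 beyond 200 kb, 57 from any gene and 363 to 472 without 1 library. siControl-only regions were 39 with 50% reciprocal overlap, 47 with joined summits, 35 and 38 with equal lengths, 50 beyond 50 kb, 8 beyond 200 kb, 5 from any gene and 32 to 171 without 1 library (126 without siControl replicate 1, 171 without siControl replicate 2 and 137 without siChst7 replicate 1); siChst7-only regions were 48 with equal lengths by −log10 q, 156 beyond 50 kb, 25 beyond 200 kb, 15 from any gene and 120 to 539 without 1 library. The difference in the share called in all lists reversed at a fold of at least 3 (-0.951), beyond 200 kb (-0.398) and from any gene (-2.82; -1.00 to 0.614 without 1 library), and that in width with equal lengths (-0.0174 by −log10 q, -0.0235 by fold) and from any gene (-0.101; 0.00463 to 0.0262 without 1 library). The causes were not tested. The density ratios and the chromosome 13 difference kept their direction in 10 of 10 alternatives; of 43 named regions, 33 to 42 kept their number of lists (with joined summits the Nfkbiz region was in 2 and that at Trib1 in 3, and with 50% reciprocal overlap those in Msi2 and near Cited2 in 3; the Klf6 region at 613 kb was in 2 with equal lengths). Same-numbered libraries of the groups showed little shared deviation (correlations of 0.0438 for fold and -0.0336 for presence). From lists of unequal length this cannot settle whether they were prepared together. With a replicate block the distal share differed by the same 0.171 points, and its sign-flip permutation cannot give a p below 0.5. Region strength between libraries is limited by lists without read counts.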
